A study of Mus musculus with 64 samples.

Results

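Gene expression was compared between the hypothalamus and the hippocampus of the same 8 unstressed mice. The comparison used 16 of the 64 RNA libraries of the series, 8 labelled as control hypothalamus and 8 as control hippocampus, chosen by their labels alone and paired by the animal codes C1 to C8. All animals were male BALB/c mice aged 28 weeks, an inbred albino laboratory strain, with no transgene named. The control animals were left undisturbed while their counterparts went through Unpredictable Chronic Mild Stress (UCMS), a 9-week schedule of varied mild stressors used as a model of major depression. Tissue of both groups was taken between ZT12.5 and ZT14.5, hours counted from lights on, which was 14 to 16 hours after the last stressor in the stressed animals. The other 8 hypothalamus and 8 hippocampus libraries, from UCMS mice, served as a separate set of animals for the same contrast. Each library held total RNA of dissected tissue after removal of ribosomal RNA, so a lower level in bulk tissue can come from fewer cells of a type or from less RNA per cell, and these cannot be told apart.

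The hypothalamus is the part of the diencephalon that governs feeding, body temperature, sleep and hormone release, and much of its output is carried by neuropeptides made in small groups of neurons. Its neurons are largely GABAergic or use the vesicular glutamate transporter encoded by Slc17a6. The hippocampus is a cortical structure of the telencephalon, dominated by densely packed pyramidal and granule neurons that load glutamate through the transporter encoded by Slc17a7 and carry many dendritic spines.

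Promoters of 5 genes are shown, each of a gene described in detail below: Pmch, Cartpt and Magel2, higher in hypothalamus, and Slc17a7 and Neurod6, lower there. Each stretch holds 250 bases before and 50 bases after the transcription start, from RefSeq on GRCm38.p6, written 5′ to 3′ on the gene's own strand.
Pmch promoter, chr10:88090822-88091121, plus strand: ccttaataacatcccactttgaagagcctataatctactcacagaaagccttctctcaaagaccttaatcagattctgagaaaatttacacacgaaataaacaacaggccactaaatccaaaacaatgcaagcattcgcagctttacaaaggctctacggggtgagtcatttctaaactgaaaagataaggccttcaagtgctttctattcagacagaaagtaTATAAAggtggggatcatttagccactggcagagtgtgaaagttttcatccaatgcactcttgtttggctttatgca
Cartpt promoter, chr13:99900634-99900933, minus strand: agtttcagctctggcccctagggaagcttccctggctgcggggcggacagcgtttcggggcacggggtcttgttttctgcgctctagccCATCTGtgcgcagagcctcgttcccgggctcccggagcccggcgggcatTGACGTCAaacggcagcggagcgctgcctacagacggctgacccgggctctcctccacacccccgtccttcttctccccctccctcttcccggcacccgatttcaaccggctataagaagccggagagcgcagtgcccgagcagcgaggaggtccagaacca
Magel2 promoter, chr7:62376729-62377028, plus strand: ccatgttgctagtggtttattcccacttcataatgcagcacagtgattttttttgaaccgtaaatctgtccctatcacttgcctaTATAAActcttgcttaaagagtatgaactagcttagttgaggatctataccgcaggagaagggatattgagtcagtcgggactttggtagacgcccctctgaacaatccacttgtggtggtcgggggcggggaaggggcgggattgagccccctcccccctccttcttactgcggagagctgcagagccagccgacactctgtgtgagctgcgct
Slc17a7 promoter, chr7:45163671-45163970, plus strand: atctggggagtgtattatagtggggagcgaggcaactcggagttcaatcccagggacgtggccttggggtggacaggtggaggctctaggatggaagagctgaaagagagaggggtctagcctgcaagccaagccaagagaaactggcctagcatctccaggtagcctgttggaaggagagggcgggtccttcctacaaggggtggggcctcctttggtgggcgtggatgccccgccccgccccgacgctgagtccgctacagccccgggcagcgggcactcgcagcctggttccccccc
Neurod6 promoter, chr6:55681214-55681513, minus strand: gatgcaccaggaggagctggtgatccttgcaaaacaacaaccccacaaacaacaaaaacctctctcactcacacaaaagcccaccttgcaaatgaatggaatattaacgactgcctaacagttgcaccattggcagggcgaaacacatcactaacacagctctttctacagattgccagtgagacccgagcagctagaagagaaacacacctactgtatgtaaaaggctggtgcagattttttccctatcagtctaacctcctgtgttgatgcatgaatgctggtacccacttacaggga
Capitals mark exact matches, on either strand, to the TATA box TATAAA, to the cyclic AMP response element TGACGTCA or to the E-box CAGATG, a form bound by NeuroD factors. Of all 32851 promoter stretches of this length, 13.6% held the first, 1.79% the second and 17.2% the third motif. The Pmch promoter held a TATA box whose first base lay at -27 from the start. The Cartpt promoter held the cyclic AMP response element at -112 and an E-box at -161, which do not overlap, and the Magel2 promoter held a TATAAA at -165. None of the 3 motifs was found in these windows of Slc17a7 or Neurod6, and no binding was measured here.

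The authors deposited levels of 16155 genes for hypothalamus and 15573 for hippocampus, and 15266 genes were in both tables. Values were log2 levels whose depth is unknown. The 2 tables had been normalized apart by the authors, so region and table cannot be fully told apart, and all levels below were first set to 1 common distribution across both regions. Libraries of animals C1 and C7 stood apart in both regions. In hypothalamus, Hbb-bs, a beta globin gene of red blood cells, had a level of 14.13 in C1 and 13.95 in C7 against 3.99 to 7.99 in the other 6 animals. In hippocampus the 2 animals were both at 14.54, against 4.85 to 8.40. Their libraries also lay nearer to each other's region than those of the other animals for several genes below, so values without them are given beside the genes they move most. The hypothalamus library of C5 had the highest summed level of 10 thalamic genes, 9.80 against a median of 8.67, and of 21 myelin genes, 12.70 against a median of 11.89. The hippocampus libraries of C5 and C8 had the highest summed levels of 7 choroid plexus genes, reaching 12.52 against a median of 8.20.

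Of 13739 genes tested, 4221 were higher in hypothalamus and 3429 lower at an adjusted p under 0.05, which is 30.7% and 25% of genes tested (limma, paired by animal, Benjamini-Hochberg). With a difference of at least 2-fold as well, 250 genes were higher, 1.82% of those tested, and 520 were lower, 3.78%. Differences of at least 4-fold were seen for 43 higher and 90 lower genes. Of the 2-fold genes, 242 and 499 had the same sign in all 8 animals, and the levels of the regions did not overlap for 218 and 460, against 22.6% of all genes tested. Without C1 and C7 the 2-fold counts were 305 and 600. The share of called genes that were higher depended on scaling when no minimum size was set: it was 55.2% on the common distribution, 65.1% with the values as deposited and 48.7% after centring those on their median difference. The median difference of all genes was 0.03 on the common distribution and 0.09 as deposited.

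**Figure D1:**
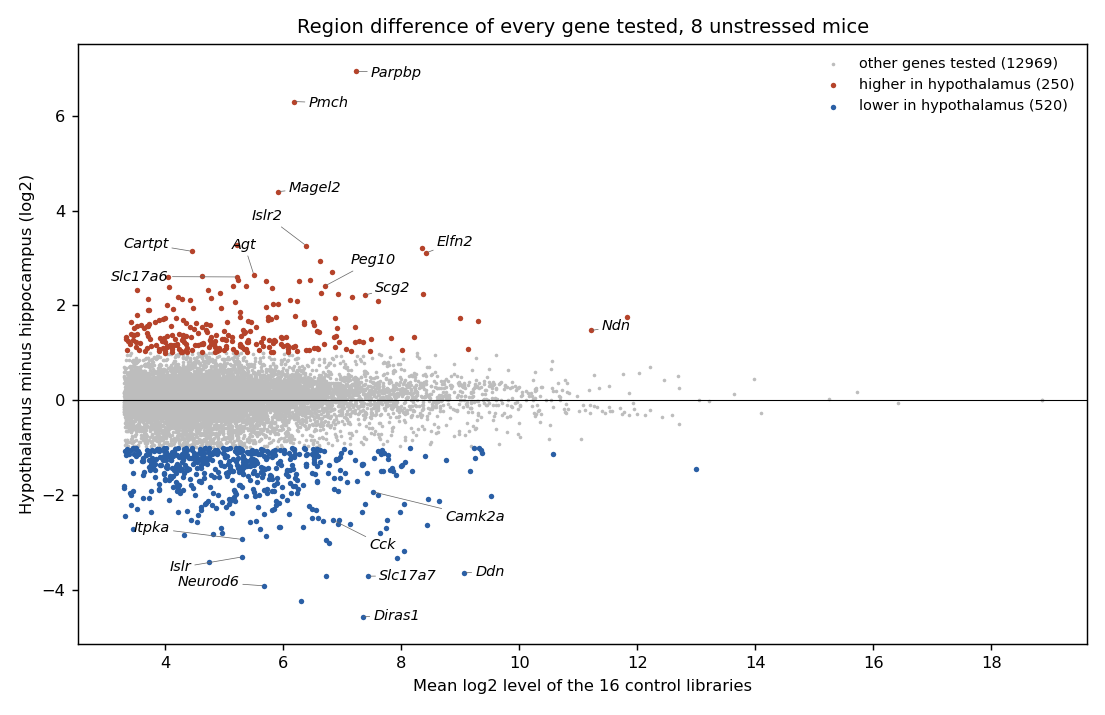
Difference between hypothalamus and hippocampus (log2, vertical axis) against the mean log2 level of the 16 control libraries (horizontal axis), 1 point per gene tested. Red points are the 250 genes at least 2-fold higher and blue points the 520 genes at least 2-fold lower at an adjusted p under 0.05; Parpbp at 6.94, Pmch at 6.30 and Magel2 at 4.40 are the 3 highest labelled points, and Diras1 at -4.57 is the lowest.

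Pmch and Cartpt were the neuropeptide genes among the 12 named genes with the largest differences toward hypothalamus. Pmch encodes the precursor of melanin-concentrating hormone, a feeding and sleep peptide of lateral hypothalamic neurons, and lies at chr10:88091072-88092375 (GENCODE M21, GRCm38). Its level ran from 8.56 to 9.76 with a median of 9.38 in hypothalamus, and from 0.75 to 7.01 with a median of 2.35 in hippocampus. The groups did not overlap, but the hippocampus libraries of C1 and C7, at 6.79 and 7.01, were far above the other 6, which were at or below 2.70. The paired difference was 6.30 ± 0.82 (SE, n = 8 animals; limma adjusted p = 0.000113), or 78.9-fold, and 7.74 ± 0.30 without C1 and C7. The hippocampus mean of 3.03 lay under 3.31, the level used to filter genes by their mean over both regions. Pmch therefore passed that filter through hypothalamus, and its fold is taken against a low level. Parpbp, which lies on the opposite strand and shares 435 exonic bases with Pmch, differed by 6.94 ± 0.66 (limma adjusted p = 1.4e-05); whether the counting used strand is not given in the sources used here, so its reads and those of Pmch cannot be told apart.

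Cartpt encodes the precursor of CART peptides, which restrain feeding. It ran from 4.79 to 6.45 (median 6.10) in hypothalamus and from 1.12 to 4.69 (median 2.58) in hippocampus, without overlap, with C5 lowest in hypothalamus and C1 and C7 highest in hippocampus. The difference was 3.14 ± 0.37 (SE, n = 8; limma adjusted p = 5.89e-05), and 3.68 ± 0.29 without C1 and C7. The hippocampus mean of Cartpt, 2.87, lay under the filter level of 3.31. Pomc, the precursor of melanocortins of arcuate neurons, was between 4.59 and 5.99 in 7 hypothalamus libraries and at 1.14 in C5. In hippocampus it ran from 1.60 to 3.60, with a mean of 3.05, also under the filter level. The groups of Pomc overlapped through C5 alone. The difference of 1.68 ± 0.58 passed narrowly (limma adjusted p = 0.0297), was 2.28 ± 0.33 without C5 (adjusted p = 0.000377), and no longer passed when any 1 of 6 other animals was left out (adjusted p from 0.0521 to 0.0706) or when C1 and C7 were left out together (adjusted p = 0.0819). Of the 12 feeding and arousal peptides listed, 5 were tested. Of these, 4 were higher and 0 lower in hypothalamus, beside 30.7% and 25% of all genes tested. Npy, an appetite peptide also made by cortical interneurons, did not pass at -0.14.

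Several peptide genes were in the hypothalamus table alone, so no difference can be given and their levels are as deposited. Avp, the vasopressin precursor, ran from 8.15 to 10.10 with a median of 9.17 over the 8 control animals. Hcrt, the orexin precursor of arousal neurons, ran from 7.60 to 8.60 with a median of 8.37. Oxt, the oxytocin precursor, spanned 6.44 to 9.01 (median 7.14), and Trh, which drives pituitary thyrotropin, 5.21 to 6.71 (median 5.85). Hcrt varied less between animals (SD 0.33) than Avp (0.78) and Oxt (1.02). Gal, Tac2, Qrfp, Ghrh, Agrp and Ucn3 were also held by that table alone, with mean levels of 4.59, 4.20, 3.18, 2.97, 2.95 and 3.99. Whether they were filtered from the other table or not measured there is not given in the sources used here. Crh, the corticotropin-releasing hormone gene, was in both tables and was higher in hypothalamus by 1.24 ± 0.36 (limma adjusted p = 0.0132) with overlapping groups, 2.94 to 5.07 against 1.24 to 3.73. The hippocampus mean of Crh, 2.75, lay under the filter level of 3.31.

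Of 14 other peptide and peptide-pathway genes tested, 7 were higher and 3 lower, beside 30.7% and 25% of all genes tested. Scg2, a secretogranin of dense-core vesicles, had levels of 7.80 to 8.96 (median 8.57) in hypothalamus and 5.96 to 6.59 (median 6.33) in hippocampus, a difference of 2.22 ± 0.12 (SE, n = 8; limma adjusted p = 5.05e-07). Penk, the enkephalin precursor, was at 6.02 to 6.62 against 3.93 to 5.16, and Tac1, the substance P precursor, at 4.76 to 5.51 against 3.19 to 4.25; neither pair overlapped. Their differences were 1.65 ± 0.12 and 1.64 ± 0.18. Cbln1, a synapse organizer, differed by 1.86 ± 0.21. Cck, the cholecystokinin gene of many hippocampal neurons, went the other way: 4.63 to 6.61 (median 5.65) in hypothalamus and 7.97 to 8.23 (median 8.15) in hippocampus, lower by -2.54 ± 0.23 (limma adjusted p = 9.47e-06). Grp, the gastrin-releasing peptide gene, was lower by -1.07 ± 0.17. Sst, the somatostatin gene, was at 7.53 to 8.43 against 7.78 to 7.99 and did not pass (0.08 ± 0.09, limma adjusted p = 0.445); the hypothalamus libraries spread more widely around the same level.

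**Figure D2:**
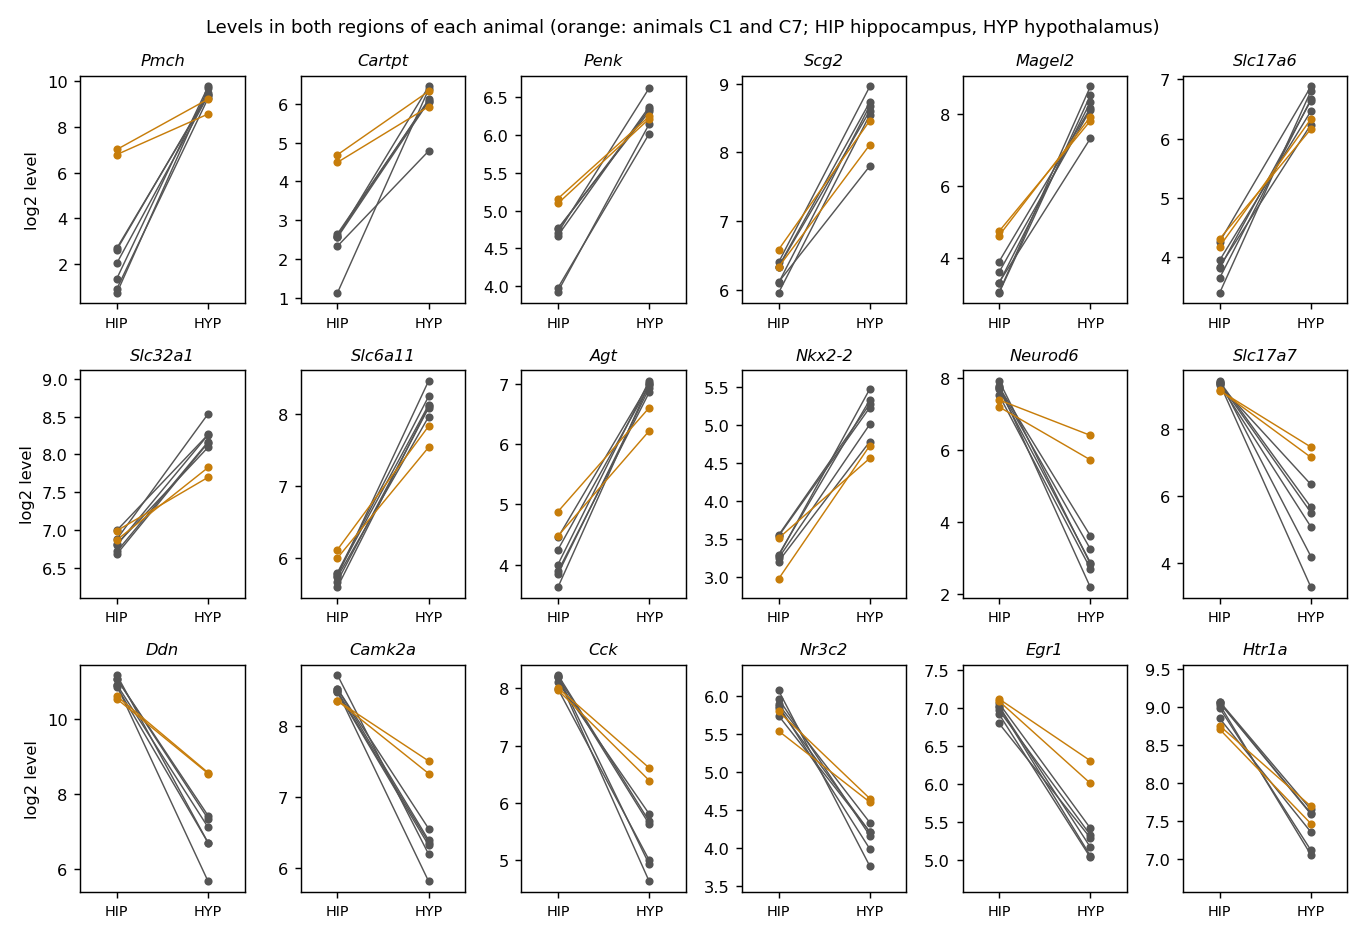
Log2 level on the common distribution in hippocampus (HIP) and hypothalamus (HYP) of each of the 8 control animals, 1 line per animal and 1 panel per gene, with axes that differ between panels. Orange lines are animals C1 and C7, whose hippocampus libraries are highest for Pmch and Cartpt and whose hypothalamus libraries are highest for Neurod6, Slc17a7, Ddn and Camk2a.

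Transcription factors pattern the brain regions during development. Of all 16155 genes in the hypothalamus table, 889 were held there alone, and of 15573 in the hippocampus table, 307. Why a gene is missing from a table is not given in the sources used here. Of 44 factors listed for hypothalamus and diencephalon, 28 were in the hypothalamus table alone and 0 in the hippocampus table alone. Among these were Six3, at 6.07 to 7.01 (median 6.39), Nkx2-1, a founder factor of the ventral hypothalamus, at 2.97 to 4.94 (median 4.63), and Otp, Sim1 and Nr5a1, factors of neuroendocrine and ventromedial neurons, with mean levels of 4.06, 3.78 and 3.72. Nkx2-1 was lowest in C5. Of the 15 tested in both tables, 6 were higher and 2 lower, with a median difference of 0.32. Among all genes tested, 30.7% were higher and 25% lower, with a median of 0.03. Nkx2-2, a ventral factor also used by oligodendrocyte precursors, was at 4.56 to 5.48 (median 5.12) against 2.97 to 3.55 (median 3.28), without overlap, higher by 1.73 ± 0.11 (SE, n = 8; limma adjusted p = 1.16e-06). Nhlh2, a factor of feeding circuits, was higher by 1.61 ± 0.19, and Dlx2, a factor of GABAergic lineages, by 1.04 ± 0.16. Dlx1 went the other way, lower by -0.74 ± 0.10 (limma adjusted p = 0.000118) in 8 of 8 animals, without overlap. Isl1, a factor of arcuate neurons, passed at 1.66 ± 0.46 (limma adjusted p = 0.0107) although its hippocampus levels ran from 0.67 to 5.30 and overlapped the hypothalamus range of 3.76 to 4.76. Hippocampus means of Nhlh2 and Isl1, 2.92 and 2.60, lay under the filter level of 3.31.

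Of 23 telencephalic and hippocampal factors tested, 20 were lower in hypothalamus and 1 was higher, with a median of -1.11, where 25% of all genes were lower and the median of all was 0.03. Neurod6, a factor of pyramidal neurons, lies at chr6:55677822-55681263. It ran from 2.20 to 6.42 (median 3.07) in hypothalamus and from 7.21 to 7.93 (median 7.71) in hippocampus, with C1 and C7 at 6.42 and 5.74 and the other 6 hypothalamus libraries at or below 3.63. The difference was -3.92 ± 0.51 (SE, n = 8; limma adjusted p = 0.000109), and -4.82 ± 0.16 without C1 and C7. Bhlhe22, another factor of cortical neurons, was at 5.82 to 8.11 against 9.42 to 10.003 and lower by -2.63 ± 0.28. Pou3f1 was lower by -2.52 ± 0.20 and Fezf2, Lhx2 and Tbr1, which shape cortical cell identity, by -1.65, -1.501 and -1.12. Neurod1, a factor of granule neurons, was the exception at 0.72 ± 0.18 (limma adjusted p = 0.00667). Without C1 and C7 it was 0.43 ± 0.11 (limma adjusted p = 0.0103). Neurod1 shares 201 exonic bases with Cerkl on the same strand.

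Hippocampal field genes, which mark the CA fields and the dentate gyrus, were lower for 18 of 26 tested and higher for 5. Over all genes tested, 25% were lower and 30.7% higher. Rgs14 and Fibcd1, enriched in CA2 and CA1, were lower by -1.97 ± 0.22 and -1.67 ± 0.27. The hypothalamus mean of Rgs14, 3.26, lay under the filter level of 3.31. Nr3c2, the mineralocorticoid receptor, ran from 3.76 to 4.65 (median 4.21) in hypothalamus and from 5.54 to 6.08 (median 5.86) in hippocampus, without overlap, lower by -1.61 ± 0.13 (limma adjusted p = 4.98e-06). Spink8 and Lct, which the hippocampus table alone held, were at 3.53 to 4.27 and 3.73 to 4.30 as deposited. Pcp4, Lrrtm4, Coch, Trhr and Calb1 were the 5 higher members, by 0.72, 0.59, 0.52, 0.43 and 0.26.

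Transmitter genes separated the regions in the same animals. Slc17a7, the vesicular glutamate transporter of cortical neurons, lies at chr7:45163949-45176142. It ran from 3.29 to 7.45 (median 5.59) in hypothalamus and from 9.13 to 9.42 (median 9.33) in hippocampus, lower by -3.72 ± 0.44 (SE, n = 8; limma adjusted p = 6.26e-05) and by -4.34 ± 0.36 without C1 and C7. The hypothalamus levels spread widely and those of C1 and C7 were the highest. Slc17a6, the transporter of subcortical glutamatergic neurons, was the reverse: 6.16 to 6.88 (median 6.56) against 3.40 to 4.31 (median 3.89), higher by 2.60 ± 0.15 (limma adjusted p = 7.85e-07). Both genes were without overlap between regions.

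All 7 tested genes of GABA synthesis, transport and breakdown were higher in hypothalamus, 4 of them at least 2-fold. Over all genes tested, 30.7% were higher, and 1.82% at least 2-fold higher. Slc32a1, the vesicular GABA transporter, was at 7.70 to 8.54 (median 8.16) against 6.68 to 6.998 (median 6.84), and Gad2, a GABA-synthesizing enzyme, at 5.96 to 6.62 (median 6.45) against 5.002 to 5.33 (median 5.10). Their differences were 1.28 ± 0.10 and 1.27 ± 0.10 (SE, n = 8; limma adjusted p = 3.09e-06 and 3.9e-06). Slc32a1 shares 697 exonic bases with an antisense gene. Gad1, which makes the same transmitter, was higher by only 0.36. The largest of the group was Slc6a11, a GABA transporter of astrocytes, at 7.54 to 8.47 (median 8.10) against 5.60 to 6.12 (median 5.77), a difference of 2.24 ± 0.12. Abat, which degrades GABA, was higher by 1.14 ± 0.08. Among genes of monoamines and acetylcholine, Ddc, the decarboxylase of dopamine and serotonin synthesis, was higher by 1.90 ± 0.24 and Ache by 1.76 ± 0.08, whereas Slc18a2, the vesicular monoamine transporter, was lower by -2.25 ± 0.21. The hippocampus mean of Ddc, 2.78, lay under the filter level of 3.31. Th, Slc6a3, Slc18a3 and Chat, which mark dopaminergic and cholinergic neurons, were held by the hypothalamus table alone, with mean levels of 4.55, 4.34, 4.65 and 3.09.

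Postsynaptic genes of forebrain glutamatergic neurons formed the list with the lowest median: 23 of 25 were lower, 18 of them at least 2-fold, 1 was higher, and the median was -1.38. Among all genes tested, 25% were lower, 3.78% at least 2-fold lower, and 30.7% higher. Ddn encodes dendrin, a protein of dendrites and spines. It ran from 5.66 to 8.57 (median 7.22) in hypothalamus and from 10.54 to 11.18 (median 10.91) in hippocampus, lower by -3.64 ± 0.33 (SE, n = 8; limma adjusted p = 1.04e-05) and by -4.18 ± 0.19 without C1 and C7. Camk2a, the alpha subunit of the kinase of synaptic plasticity, was at 5.81 to 7.51 (median 6.37) against 8.36 to 8.72 (median 8.49), lower by -1.94 ± 0.20, and by -2.27 ± 0.09 without C1 and C7. C1 and C7 were the highest 2 hypothalamus libraries for both genes, and neither gene overlapped between regions. Itpka, Hpca, Icam5 and Nrgn, which act in spines or in calcium signalling, were lower by -2.94, -2.37, -2.32 and -2.20. Dlg4, which encodes the scaffold PSD-95, did not pass at -0.02, and Rasgrf2 was the higher member at 0.76 ± 0.10. Pan-neuronal genes, by contrast, had a median of -0.07. Of 20 such genes 5 were higher and 8 lower, beside 30.7% and 25% of all genes tested, and none by 2-fold. The largest of them were Stx1a and Rbfox3, a syntaxin of synaptic release and the nuclear antigen NeuN, lower by -0.95 and -0.89.

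**Figure D3:**
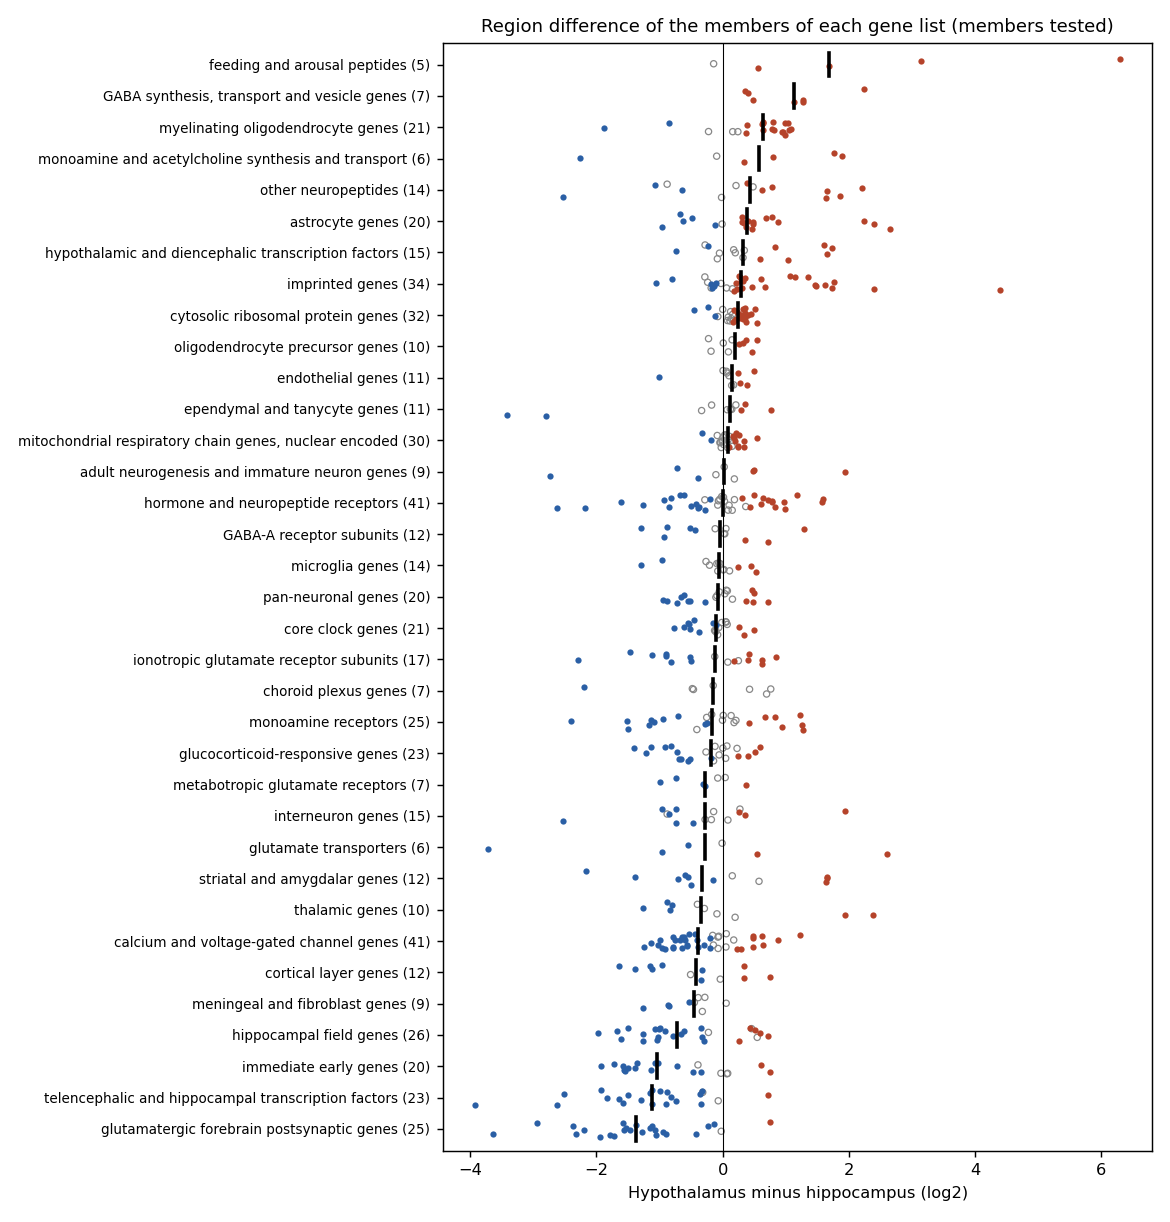
Difference between hypothalamus and hippocampus (log2, horizontal axis) of every tested member of the lists with at least 5 members tested, with the number tested in brackets. Filled points passed at an adjusted p under 0.05 (red higher, blue lower in hypothalamus), open points did not, and black bars are list medians, which run from -1.38 for postsynaptic genes to 1.68 for feeding and arousal peptides.

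Receptor genes of each family were called in both directions, beside 30.7% of all genes tested that were higher and 25% that were lower. Of 17 ionotropic glutamate receptor subunits, 8 were lower and 6 higher. Grin2a, an NMDA receptor subunit, was at 4.09 to 5.55 (median 4.61) against 6.81 to 7.26 (median 6.97), lower by -2.30 ± 0.17 (SE, n = 8; limma adjusted p = 2.93e-06), and Grin2b and the AMPA receptor subunit gene Gria2 by -1.47 and -1.12. Grin3a and Grin2d were both higher by 0.63. Of 12 GABA-A receptor subunits, 5 were lower and 3 higher. Gabra5, which serves tonic inhibition in hippocampal pyramidal cells, was at 3.89 to 5.15 against 5.78 to 6.11, lower by -1.30 ± 0.13, and Gabrg1 at 5.39 to 5.97 against 4.13 to 4.50, higher by 1.29 ± 0.10; neither overlapped. Gabrq and Gabre were in the hypothalamus table alone, with mean levels of 4.24 and 3.47.

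Of 41 hormone and neuropeptide receptors tested, 14 were higher and 15 lower, with a median of 0.01. The receptors for galanin and for dynorphin, Galr1 and Oprk1, were higher by 1.59 ± 0.22 and 1.57 ± 0.25, and Npy1r by 1.18 ± 0.09. Sstr4, a somatostatin receptor, was lower by -2.62 ± 0.26, and Prlr, the prolactin receptor, by -2.18 ± 0.34; Prlr is also abundant in choroid plexus, whose genes varied among the hippocampus libraries, and their part in it was not tested. Nr3c1, the glucocorticoid receptor, did not pass at -0.01, unlike Nr3c2. Mc3r, Avpr1a and Calcr, receptors for melanocortins, vasopressin and calcitonin, were in the hypothalamus table alone, with mean levels of 5.11, 4.15 and 3.36.

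Of 25 monoamine and muscarinic receptors, 10 were lower and 7 higher. Htr1a, a serotonin receptor that inhibits neurons, ran from 7.05 to 7.69 (median 7.53) against 8.71 to 9.07 (median 9.01), without overlap, lower by -1.51 ± 0.09 (SE, n = 8; limma adjusted p = 1.18e-06). Adra1d and Drd5, receptors for noradrenaline and dopamine, were lower by -2.41 ± 0.38 and -1.51 ± 0.08, although Drd5 shares 1531 exonic bases with an antisense gene. Htr2c, the serotonin receptor linked to appetite, was higher by 1.27 ± 0.14 and Htr7, linked to circadian phase, by 1.22 ± 0.07. Of 41 calcium and voltage-gated channel genes, 24 were lower and 9 higher, beside 25% and 30.7% of all genes tested. Their median was -0.39. Cacna1e, a calcium channel subunit, was lower by -1.25 ± 0.10, while Cacna2d2 was higher by 1.23 ± 0.13.

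Imprinted genes are expressed from the maternal or the paternal copy alone, and many act in growth and feeding. Of 34 tested, 22 were higher in hypothalamus, 10 of them at least 2-fold, and 6 were lower, with a median of 0.29. Among all genes tested, 30.7% were higher, 1.82% at least 2-fold higher, and 25% lower. Magel2, a Prader-Willi region gene of hypothalamic neurons, lies at chr7:62377010-62381640. Its level ran from 7.32 to 8.75 (median 8.13) in hypothalamus and from 3.05 to 4.75 (median 3.48) in hippocampus. The difference was 4.40 ± 0.28 (SE, n = 8; limma adjusted p = 1.55e-06), or 21.1-fold, with no overlap, and C1 and C7 were the 2 highest hippocampus libraries. Without these animals it was 4.81 ± 0.22. Ndn, its neighbour in that region, was at 11.56 to 12.34 (median 11.99) against 10.44 to 10.52 (median 10.49), higher by 1.47 ± 0.09. Peg10, a retrotransposon-derived gene, was at 7.09 to 8.38 (median 7.97) against 5.05 to 6.46 (median 5.29), higher by 2.41 ± 0.23. Nap1l5, Peg3, Dlk1, Grb10, Impact, Kcnk9 and Usp29 completed the 2-fold group, from 1.07 to 1.76. Plagl1, a growth regulator, was lower by -1.06 ± 0.16, and Snrpn and Snurf, which lie in the same Prader-Willi region as Magel2, were lower by -0.19 and -0.11. Asb4 and Mkrn3 were in the hypothalamus table alone.

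Of 21 myelin genes, 16 were higher and 2 lower, with a median of 0.64, beside 30.7%, 25% and 0.03 for all genes tested. Trf, Ermn and Mobp, the 3 members at least 2-fold higher, differed by 1.08 ± 0.14, 1.06 ± 0.13 and 1.04 ± 0.15 (SE, n = 8; limma adjusted p = 8.28e-05, 8.73e-05 and 0.00023), without overlap between regions.

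Of 20 astrocyte genes, 14 were higher and 5 lower, with a median of 0.39. Agt, angiotensinogen, was at 6.22 to 7.05 (median 6.95) against 3.62 to 4.88 (median 4.12), higher by 2.65 ± 0.18 (SE, n = 8; limma adjusted p = 2.27e-06), and Itih3 by 2.41 ± 0.14. Slc1a2, the main astrocytic glutamate transporter, was lower by -0.96 and Gja1, the astrocytic connexin, higher by 0.32, so astrocyte genes did not share 1 size or sign. Of 14 microglia genes, 3 were higher, Ctss by the most at 0.53, and 2 lower, beside 30.7% and 25% of all genes tested. P2ry12 and C1qa were the lower members, by -1.29 and -0.97, and Cx3cr1, Tmem119 and Csf1r did not pass. Of 11 endothelial genes, 4 were higher, Slc2a1 by the most at 0.50, and 1 lower, the vascular growth factor receptor Kdr by -1.004.

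Choroid plexus genes were not called as a group: of 7 tested, 1 was lower and 0 higher, beside 25% and 30.7% of all genes tested. Ttr, the transthyretin gene of that epithelium, spanned 4.69 to 7.70 (median 6.25) in hypothalamus and 4.87 to 12.34 (median 7.59) in hippocampus. Its paired difference ranged from -6.26 in C5 to 0.999 in C2, and the mean of -2.20 ± 0.85 was at the threshold (limma adjusted p = 0.0499); it did not pass without C3, C5, C6 or C8 (adjusted p from 0.103 to 0.121), nor with the values as deposited, with no filter or with no trend (adjusted p = 0.0528, 0.0519 and 0.0541). Without C1 and C7 it was -3.03 ± 0.92 (limma adjusted p = 0.0235). Folr1, Kcne2, Slc4a5 and Tmem72, also of choroid plexus, were in the hippocampus table alone. The summed level of the 7 genes ran from 6.89 to 12.52 in hippocampus and from 7.18 to 8.53 in hypothalamus. Prkcd, a thalamic gene, was at 6.96 in the hypothalamus library of C5 and at or below 4.40 in the other 7, against 3.33 to 4.24 in hippocampus. It did not pass (-0.09 ± 0.45) and was lower by -0.60 ± 0.18 without C5 (limma adjusted p = 0.0195).

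**Figure D4:**
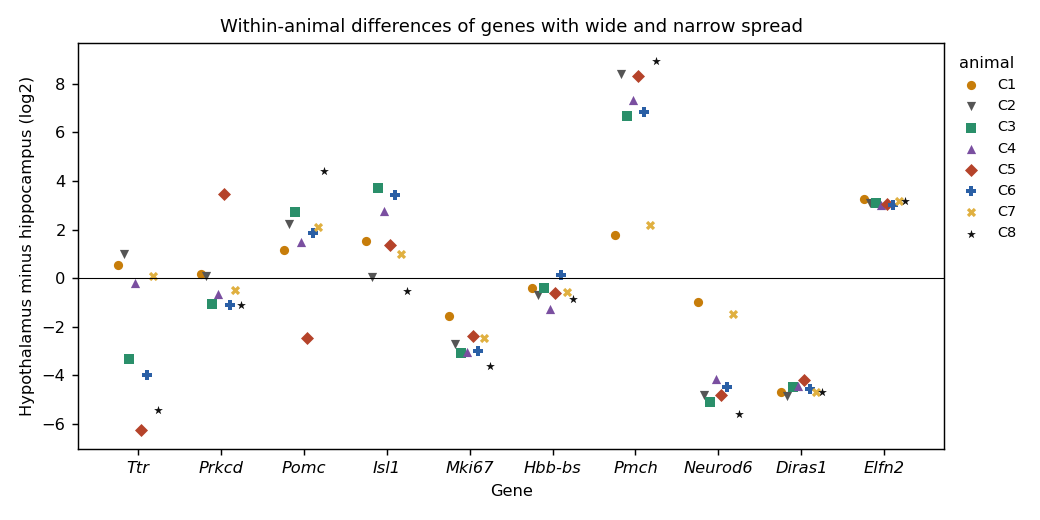
Difference between hypothalamus and hippocampus within each animal (log2, vertical axis) for 10 genes (horizontal axis), 1 symbol per control animal. Ttr ranges from -6.26 to 0.999 and Prkcd is high in C5 alone, Pmch and Neurod6 are nearest 0 in C1 and C7, and Diras1 and Elfn2 hardly vary between animals.

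Immediate early genes, which neurons switch on with activity, were lower for 14 of 20 and higher for 2, with a median of -1.05. For all genes tested the shares were 25% and 30.7%, and the median was 0.03. Egr1 was at 5.03 to 6.30 (median 5.30) against 6.80 to 7.12 (median 7.02), lower by -1.55 ± 0.12 (SE, n = 8; limma adjusted p = 4.44e-06), with C1 and C7 highest in hypothalamus, and by -1.75 ± 0.07 without them. Nr4a3, Nr4a2, Arc and Junb were lower by -1.93, -1.73, -1.57 and -1.496. Fos, the gene most used as an activity marker, was instead higher, at 3.93 to 4.95 (median 4.36) against 3.54 to 4.24 (median 3.74), by 0.60 ± 0.09 (limma adjusted p = 0.00038) in 8 of 8 animals, and Fosb was higher by 0.75 ± 0.10. The groups overlapped for Fos and not for Fosb.

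Of 23 glucocorticoid-responsive genes tested, 11 were lower and 4 higher, with a median of -0.18, beside 25%, 30.7% and 0.03 for all genes tested. Fkbp5, a chaperone that restrains the glucocorticoid receptor, ran from 3.97 to 4.44 (median 4.28) against 4.79 to 5.07 (median 4.86), lower by -0.66 ± 0.06 (SE, n = 8; limma adjusted p = 1.35e-05) without overlap. Zbtb16 and Gpd1 were lower by -1.40 ± 0.14 and -1.21 ± 0.11, whereas Tsc22d3, another glucocorticoid target, was higher by 0.59 ± 0.06, and Sgk1 did not pass at -0.12. Of 21 clock genes, 9 were lower and 3 higher, none by 2-fold. Npas2, the partner of BMAL1 in forebrain, was lower by -0.78 ± 0.12, Per1 by -0.52 and Nr1d1 by -0.54, while Arntl and Per2 did not pass.

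Among housekeeping lists, 21 of 32 ribosomal protein genes were higher and 3 lower, with a median of 0.25, and the higher count was 26 with the values as deposited. Rps6 was higher by 0.55 ± 0.04 and Rpl22 lower by -0.46 ± 0.07. Of 30 nuclear genes of the respiratory chain, 11 were higher and 2 lower, with a median of 0.08. Of all genes tested, 30.7% were higher and 25% lower. The higher count of the respiratory chain ran from 9 to 15 across the scalings and left-out animals. Outside these lists, of 9 adult neurogenesis and immature neuron genes tested, 3 were higher and 3 lower, with a median of 0.03. Calb2 was the largest higher member at 1.94 ± 0.15. Mki67, a gene of dividing cells, was lower by -2.73 ± 0.19 (SE, n = 8, limma adjusted p = 2.16e-06) in 8 of 8 animals. Its hypothalamus median of 1.15 lay under the level of 3.31 used to filter genes by their mean. The Mki67 level ran from 0.83 to 5.29 in hypothalamus and from 3.29 to 7.09 in hippocampus, with C1 and C7 highest in both regions. Without them the difference was -2.97 ± 0.19.

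A further set of genes differed by a nearly fixed amount in every animal. Of 133 genes with a called difference of at least 4-fold, 30 had an SD of the paired differences under 0.3, against a median SD of 0.53 over the 133. The median SD over all genes tested was 0.19, so an SD under 0.3 was not unusual by itself. Diras1, which encodes a Ras-family GTPase of brain, was at 4.76 to 5.47 (median 5.03) in hypothalamus and at 9.54 to 9.68 (median 9.65) in hippocampus, a difference of -4.57 ± 0.07 (SE, n = 8; limma adjusted p = 4.33e-11). Elfn2, a postsynaptic adhesion gene, was at 9.88 to 10.06 (median 9.97) against 6.72 to 7.02 (median 6.85), a difference of 3.11 ± 0.04. The paired differences of Elfn2 ran from 2.99 to 3.24, and those of C1 and C7 were near the other 6. Fchsd1 differed by -4.24 ± 0.06 and shares 1482 exonic bases with Rell2 on the opposite strand, which did not pass at 0.10. The ribosomal pseudogenes Rpl35a-ps4 and Rpl35a-ps2 differed by -2.81 and -2.71, while their parent gene Rpl35a differed by -0.06, and reads of such copies may be shared. Of the 30 genes, 24 could be placed in GENCODE M21 and 5 of these share exonic bases with a protein-coding gene. Whether both tables counted the same transcripts of a gene is not given in the sources used here and was not tested.

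Neighbouring genes that share exons need the same caution. Islr2, a neuronal adhesion gene, was higher by 3.26 ± 0.14 (limma adjusted p = 1.65e-07), and Islr, which shares 181 exonic bases with it on the same strand, was lower by -3.31 ± 0.24. Their levels were 8.02 ± 0.29 and 3.64 ± 0.70 in hypothalamus and 4.76 ± 0.23 and 6.95 ± 0.13 in hippocampus (mean ± SD, n = 8). Of 1315 exon-sharing pairs of tested genes, 5 had both members called at 2-fold, and Islr with Islr2 was the 1 pair with opposite signs. Of the 2-fold genes that could be placed, 9.9% were in an exon-sharing pair, against 15.6% of all tested genes placed. Resp18, a gene of neuroendocrine secretory granules, was higher by 2.95 ± 0.17 and shares 40 exonic bases with an antisense gene. Other large differences, in genes with no such overlap, were those of Akap5, a kinase anchor, higher by 2.70 ± 0.16, of Gpx3, a glutathione peroxidase, higher by 3.27 ± 0.25, and of Ptk2b, a calcium-dependent tyrosine kinase, lower by -2.87 ± 0.29.

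The same contrast was made in the stressed animals, whose libraries come from the same 2 separately normalized tables and had entered the common distribution. Any difference between the tables is therefore shared with the control animals. In the 8 UCMS mice, 299 genes were at least 2-fold higher in hypothalamus, 2.18% of those tested, and 534 lower, 3.89% (limma, paired by animal). Of the 250 genes higher in control animals 221 were also called in UCMS animals, which is 88.4% of the control list and 73.9% of the UCMS list, and of the 520 lower genes 461 were, 88.7% and 86.3%. All 250 and all 520 had the same sign in UCMS animals. Pmch differed by 7.04 ± 0.68 there, Magel2 by 4.84 ± 0.26, Neurod6 by -3.88 ± 0.38 and Slc17a7 by -3.78 ± 0.43 (SE, n = 8). Diras1 and Elfn2, at -4.54 ± 0.12 and 3.12 ± 0.06, again differed by nearly the same amount as in control animals.

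The test of the change itself, UCMS against control in the within-animal difference, called 0 of 13739 genes, 0%, at an adjusted p under 0.05 (limma, smallest adjusted p = 0.999). At an unadjusted p under 0.05 there were 315 genes, fewer than the 0.05 share of 13739 that no change would give on average. No other tool was run. The median SE of that change was 0.11 on the log2 scale. The smallest p belonged to Sirt4, a mitochondrial sirtuin, whose region difference was 0.33 in control and -0.11 in UCMS animals, and to Ccdc107, at 0.39 and 0.02; neither passed the adjustment.

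**Figure D5:**
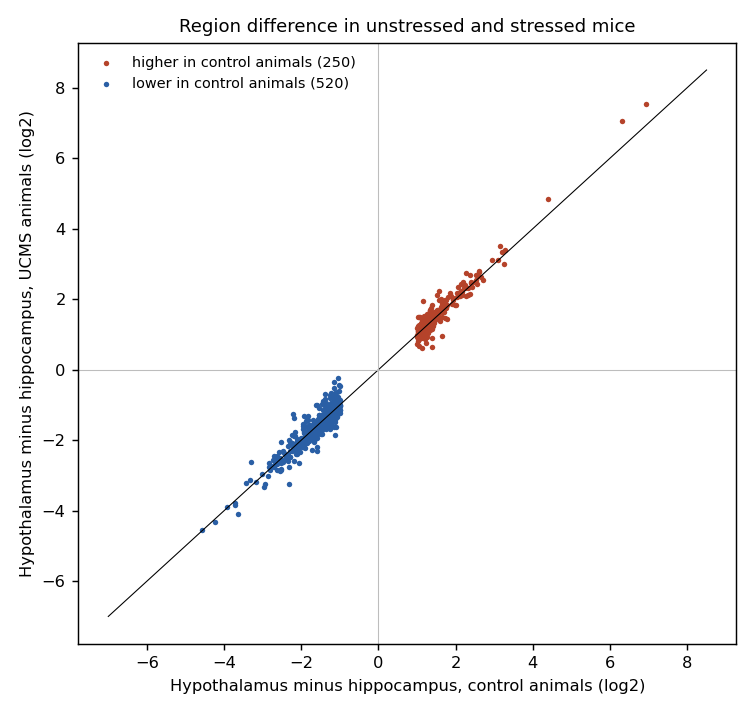
Difference between hypothalamus and hippocampus (log2) in UCMS animals (vertical axis) against that in control animals (horizontal axis) for the 250 genes higher (red) and 520 genes lower (blue) by at least 2-fold in control animals. The line marks equal differences; every point lies on the same side of 0 in both groups of animals.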

How the data were processed

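Total RNA of dissected tissue was sequenced after ribosomal RNA depletion from 100 ng with a directional kit, per the labels' protocols. The submitters' processing notes name the genome build GRCm38.p4, and no source used here gives the aligner, counting, annotation, strand use or filters. Values deposited by the authors come as a table for each tissue and were read here as log2 levels quantile normalized within each table; both were inferred from the values (77.8% and 78.8% of ranks equal within 0.002 over the 16 libraries of a table). Depth is unknown, so no counting interval is given, and levels of different genes are not compared. No column lacked a sample.

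The 32 hypothalamus and hippocampus libraries were brought to 1 distribution over 15266 shared Entrez numbers (limma 3.58.1, R 4.3.3), which moved values by a median of 0.03 (at most 0.62). The lowest 10% of genes by mean control level (1527 genes, mean under 3.31) were left out. A gene low in 1 region could pass this filter through the other region. limma was fitted to the 8 control pairs with animal as a block and trended variance, two-sided, with Benjamini-Hochberg adjustment at 0.05 over 13739 genes. Pairing comes from the animal codes in the labels, and deviations of the 2 libraries of an animal correlated at 0.13 to 0.53. For C2, C5 and C7 the hippocampus library correlated more highly with the hypothalamus library of another animal, at 0.37, 0.20 and 0.55. The values therefore do not by themselves establish the pairing. UCMS pairs were fitted alike, and the change with stress as 16 within-animal differences. The fits were run on simulated data with known changes. Changes of 0.5 and 1 on the log2 scale were recovered in 68% and 94% of genes for region. For the interaction these shares were 60% and 86%. Errors were drawn independently for each gene and library, so shifts of many genes in 1 library, as in C1 and C7, were not simulated.

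The 38 lists and the genes shown were chosen with earlier results of these data known, and lists are described by counts and medians without a set test. Genes named are those with the largest differences overall (12 per direction, same sign in 8 animals, gene models left out) and in each list (3, and 1 against the list's direction), peptides and factors in the hypothalamus table alone, the smallest interaction p and the widest paired spread; others were chosen with their values seen. Not every gene the rule picks is described, and some are not reported here. Positions and shared exons are from GENCODE M21, and genes were matched by Entrez number. Alternatives were the deposited scale, centring, filters, no block, no trend, and left-out animals.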

Additional observations from a re-analysis of the deposited data

Results flagged for a closer look

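Among 94 sets of 8 libraries of the genes shown, 7 had 1 library far from the other 7 by Dixon's ratio, and chance gives about 1 in 20 such sets. In the hypothalamus library of C5, Pomc was at 1.139 (next lowest 4.594), Cartpt at 4.787 (next lowest 5.93) and Prkcd at 6.956 (next highest 4.401). In hypothalamus, Pmch was low in C1 at 8.559 and Nhlh2 high in C3 at 5.199. In hippocampus, Pomc was low in C8 at 1.604 and Camk2a high in C3 at 8.718, where the range over 8 libraries was small. The 3 values of C5 concern 2 peptide genes and a thalamic gene; their cause was not tested.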

How the results depend on the processing

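All 6 counts of called genes kept within 1.5 times their reported value under the alternatives run, and the interaction stayed at 0 calls in all 20. With the values as deposited, 293 genes were at least 2-fold higher and 469 lower, and after centring 233 and 553. With no filter the counts were 277 and 534, and without the lowest 25% they were 217 and 469. Leaving out 1 animal at a time gave 245 to 278 higher and 494 to 553 lower genes. Without the replicate block the counts were 250 and 515, against 250 and 520 with it, and Hbb-bs (adjusted p = 0.818) and Ttr (adjusted p = 0.0501) no longer passed; it changed no other call of a named gene. Of 2117 repeats for 142 named or shown genes, 0 reversed, 24 lost their call in 6 genes (Pomc, Ttr, Ogn, Rora, Ramp3 and Hbb-bs) and 1 gained it (Prkcd without C5); the cause was not tested. In the meningeal gene Ogn this occurred without any of 5 animals (adjusted p from 0.065 to 0.0844), and in the thalamic gene Ramp3 without C1 and C7 (adjusted p = 0.0574). The common distribution uses ranks within a library, so a shift of all genes between the regions cannot be seen.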
